A study of Mus musculus with 33 samples.

Results

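Induced osteoblasts (iOB) were set against both unconverted cell types of the study at once, the fibroblasts they were made from and osteoblasts from the skull, to find the genes whose level in iOB lay outside the range of both. The members are the 3 iOB libraries, with 3 fibroblast and 3 calvarial-OB libraries beside them, 9 of the 33 samples of the series. The study profiled messenger RNA by poly-A RNA sequencing in mouse cells. iOB were tail-tip fibroblasts of Col2.3GFP mice, in which a fragment of the type I collagen promoter switches on green fluorescent protein once a cell enters the osteoblast lineage. They had been exposed for 24 hours to lentivirus carrying transcription factor genes, were split on day 3, and were kept in osteogenic medium from day 5. The day of harvest, the age of the mice and the number of animals are not given in the sources used here. The fibroblasts were cells of the same tail-tip origin, expanded for a few passages and frozen before use. The calvarial-OB libraries came from calvarial progenitor cells under osteoblast differentiation. Their titles assign them to another dataset than the rest, and the effects of dataset and of cell type cannot be told apart. All 3 groups are bulk cultures, in which fewer cells of a type and less RNA per cell cannot be told apart. No group that received virus alone or osteogenic medium alone was analysed here, so what the factors, the virus and the medium each contributed cannot be told apart. Nothing in the labels says whether the 3 libraries of a group came from separate cultures or animals, so the p-values measure the spread between these samples.

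Direct reprogramming turns a differentiated cell into another type by forced expression of transcription factors, with no pluripotent stage in between. Osteoblasts are the cells that lay down and mineralize bone matrix. Their differentiation depends on the transcription factors Runx2 and Sp7 (osterix), which switch on genes for alkaline phosphatase, bone sialoprotein, osteocalcin and type I collagen. A converted cell can lie between its start and its target for a given gene, or outside both, and the second outcome is described here.

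Library totals ranged from 5646299 to 15023771 counts, and the iOB libraries, with 6287842, 8187715 and 5646299 counts, were at the shallow end. The precursor ribosomal RNA Rn45s took 2.27% to 10.9% of the counts in fibroblast libraries and 5.08% to 5.77% in the other 6. Pearson correlations of log expression were 0.967 to 0.991 within groups, and the highest between groups was 0.884. Calvarial-OB replicate 1 lay nearer to iOB than its replicates did for several of the genes below, so a count of list members that moved by over 1.5 times without it is given both ways.

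Of 17982 genes in the count table, 13438 had enough counts to test. For each, edgeR's quasi-likelihood test compared iOB with the equally weighted mean of fibroblasts and calvarial-OB on the log2 scale, and a gene was called at a Benjamini-Hochberg adjusted p under 0.05. Against that mean 3015 genes (22.4%) were higher in iOB and 2216 (16.5%) were lower, the second count being 1476 without iOB replicate 1. Levels are given as CPM, counts scaled to library size with TMM factors, and errors of log2 differences are standard errors. A gene is described as above both, or below both, when it was called and all 3 iOB libraries lay above, or below, all 6 others. By that rule 1539 genes (11.5% of those tested) were above both and 1318 (9.81%) below both. The other 1476 higher and 898 lower genes had iOB libraries within the range of the other 6. The difference from the nearer of the 2 cell types was at least 2-fold for 570 genes above both and 298 below both. At the edge of the rule, Nol12 had 19.1, 17.9 and 20.5 CPM in iOB, against 20.4, 24.4 and 21.1 CPM in fibroblasts and 25.2, 38.0 and 32.6 CPM in calvarial-OB and fell just inside the range, since its highest iOB library passed the lowest fibroblast library. Scai, with 33.0, 31.8 and 36.2 CPM in iOB, 31.7, 24.5 and 20.5 CPM in fibroblasts and 27.5, 16.8 and 24.6 CPM in calvarial-OB, was just outside it.

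**Figure D1:**
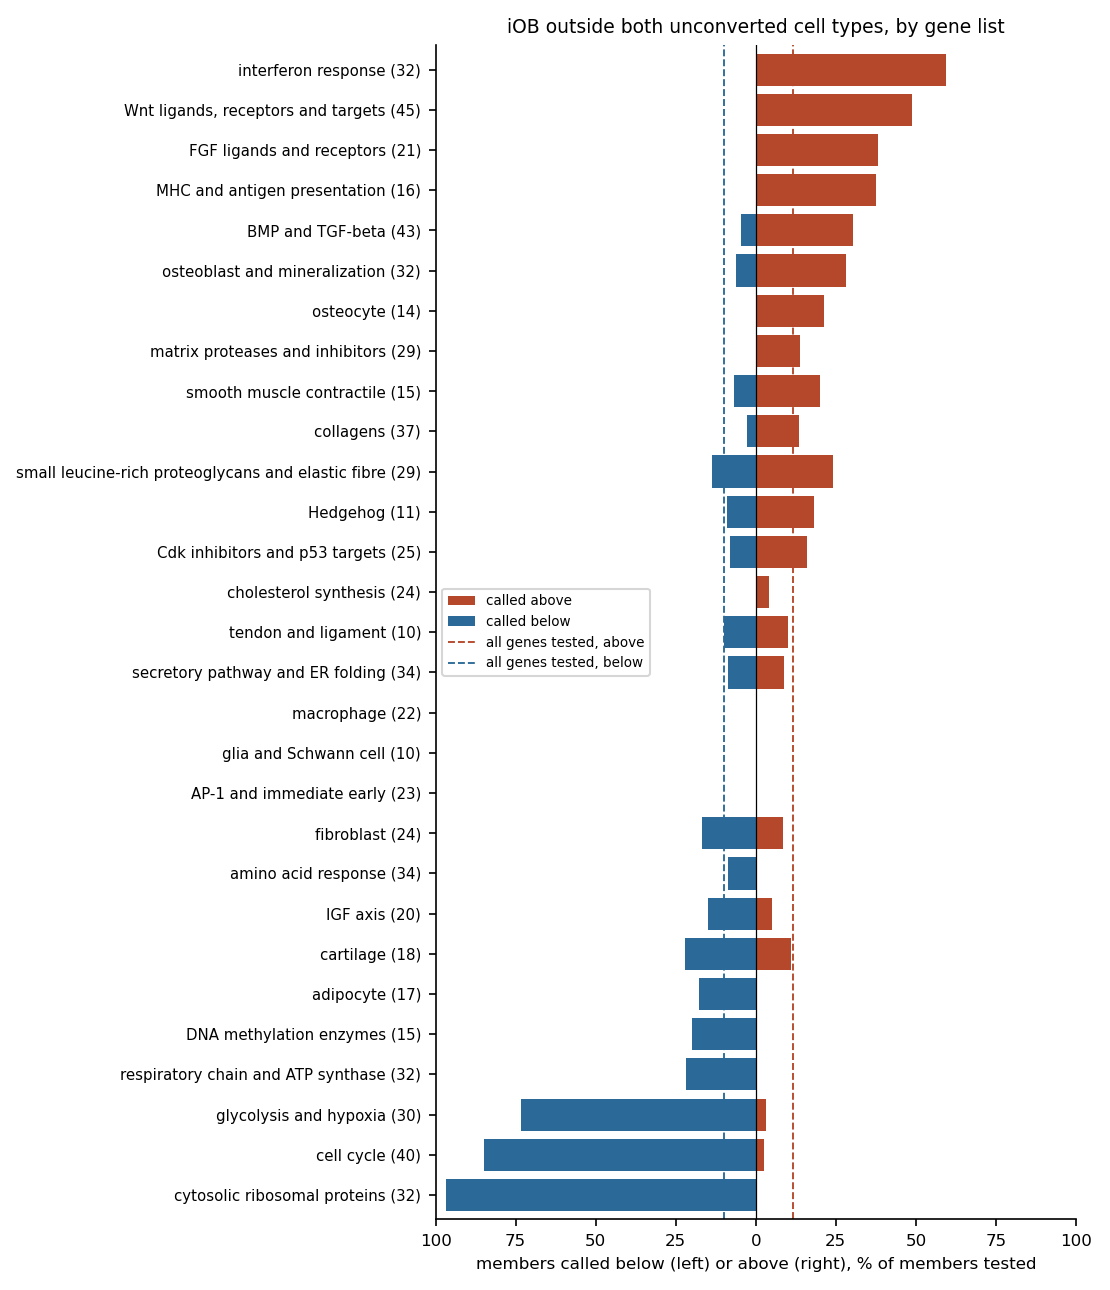
Share of tested members of each of 29 gene lists that were called with all 3 iOB libraries outside both unconverted cell types, in percent of the members tested, for lists with at least 8 members tested and at least 80% of those in the table tested, with above to the right and below to the left and the number of members tested in brackets. Dashed lines mark the same shares over all 13438 genes tested, 11.5% above and 9.81% below; the interferon response and Wnt lists lie far to the right, and cytosolic ribosomal proteins, cell cycle, and glycolysis and hypoxia far to the left.

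The factors of the published osteoblast induction, which the sample labels do not name, were Runx2, Sp7, Dlx5 and Atf4, and 3 of the 4 were above both cell types. Sp7, which encodes the zinc finger factor osterix, had 722, 518 and 573 CPM in iOB, 3.20, 4.25 and 3.07 CPM in fibroblasts and 42.4, 82.1 and 46.1 CPM in calvarial-OB. Every iOB library stood far above the highest calvarial-OB library, and the difference from the mean of the 2 cell types was 5.43 ± 0.20 on the log2 scale (edgeR adjusted p = 1.0e-08). The homeobox factor Dlx5 had 185, 210 and 225 CPM in iOB, 1.04, 1.13 and 0.664 CPM in fibroblasts and 15.1, 16.5 and 13.5 CPM in calvarial-OB (log2 difference 5.79 ± 0.12, edgeR adjusted p = 1.1e-10). Runx2 had 433, 407 and 455 CPM in iOB, against 63.2, 77.3 and 70.1 CPM in fibroblasts and 116, 111 and 99.0 CPM in calvarial-OB (2.31 ± 0.09, edgeR adjusted p = 1.2e-08). In these 3 genes the iOB libraries did not overlap the others, which the rule for above both requires. Atf4, a bZIP factor that osteoblasts use for late differentiation, overlapped, with 375, 251 and 255 CPM in iOB, 214, 261 and 251 CPM in fibroblasts and 230, 230 and 214 CPM in calvarial-OB, and was not called (0.33 ± 0.13, edgeR adjusted p = 0.057). It passed the threshold in 7 of 15 alternatives, among them DESeq2 (adjusted p = 0.032) and the fit with a trend in gene length removed (edgeR adjusted p = 0.0073), and its difference was 0.12 without iOB replicate 1 (edgeR adjusted p = 0.43). Counts of these 4 genes may include transcripts made from the vectors, which the table does not separate. None of 6 tested other Dlx and Msx genes was outside both, or 1 without iOB replicate 1. Dlx3, a homeobox gene of bone and skin, had 7.71, 4.59 and 4.42 CPM in iOB, 0.283, 0.283 and 0.581 CPM in fibroblasts and 11.5, 20.5 and 12.0 CPM in calvarial-OB.

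**Figure D2:**
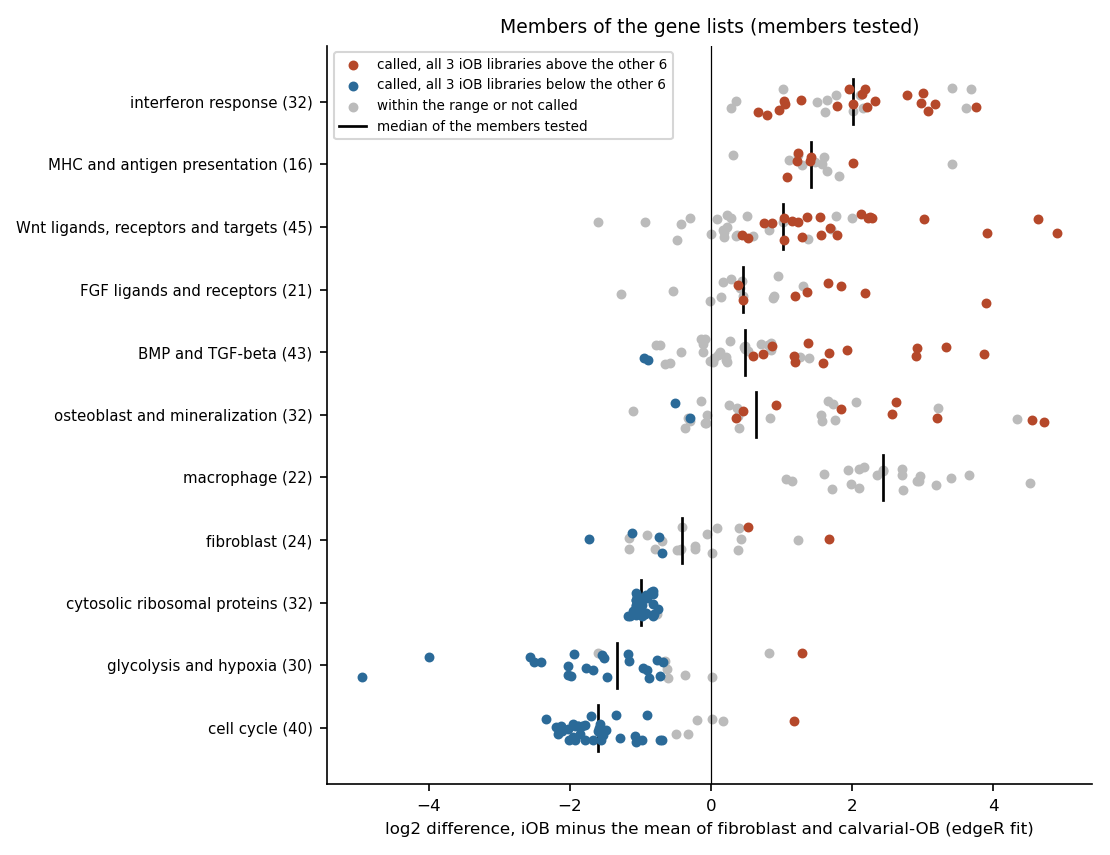
Log2 difference of iOB from the mean of fibroblast and calvarial-OB for each tested member of 11 gene lists, in colour where the gene was called and all 3 iOB libraries lay outside the other 6, with a black line at the median of the list. The list medians run from 2.43 for macrophage, a list with no coloured point, to -1.60 for cell cycle.

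Several genes of tooth and enamel matrix were above both. Of 12 members of that list in the table, 9 had enough counts to test, and 7 were above both and none below, or 1 below without iOB replicate 3 or fibroblast replicate 2. Of these 7, 5 had next to no counts in either unconverted cell type. These 5 and Sp6 reached the test through their iOB counts, so the count is not read against the 11.5% of all genes tested. Ambn, which encodes the enamel matrix protein ameloblastin, had 16.3, 9.75 and 9.33 CPM in iOB and no count in any of the 6 other libraries. Its 250 iOB counts put it at least 116-fold higher than in fibroblasts and at least 123-fold higher than in calvarial-OB, when each of those groups is given a floor of 3 counts over its 3 libraries (edgeR adjusted p = 4.4e-06). Mmp20, the enamelysin that cleaves enamel proteins, had 10.7, 10.3 and 14.2 CPM in iOB, no count in fibroblasts and a single count in calvarial-OB replicate 3 (edgeR adjusted p = 2.3e-07). It was at least 115-fold higher than in fibroblasts.

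Klk4, the protease of enamel maturation, had 4.54, 3.10 and 5.24 CPM in iOB and no count elsewhere, which was at least 41.1-fold higher than in fibroblasts and at least 44.0-fold higher than in calvarial-OB (edgeR adjusted p = 2.0e-05). Dspp, the precursor of dentin sialoprotein and dentin phosphoprotein, had 2.72, 2.52 and 6.71 CPM in iOB, with 81 counts in all, against 1 count in fibroblasts and 1 in calvarial-OB. The ratio to fibroblasts was 112, with a 95% Clopper-Pearson interval of 19.6 to 4489 that covers counting error only (edgeR adjusted p = 1.1e-05). Sp6, a zinc finger factor of enamel-forming cells related to Sp7, had 5.29, 3.78 and 3.27 CPM in iOB, 1.41, 1.13 and 1.08 CPM in fibroblasts and 0.242, 0.735 and 0.195 CPM in calvarial-OB (log2 difference 2.62, edgeR adjusted p = 6.5e-05). The exchanger gene Slc24a4, used in enamel maturation, and the Wnt effector gene Lef1 were also above both, both at under 3 CPM. Lef1 was the nearest to the threshold (1.03 ± 0.37, edgeR adjusted p = 0.044), and 6 members of the list were above both with DESeq2, with the replicate number as a block, with the length trend removed, without any 1 iOB library and without fibroblast replicate 1 or 3. Odam had 2 counts in all iOB libraries, Amelx, the amelogenin gene, had 9 and Wdr72 had 0, all too few to test.

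A wider class of genes shared this near-absence. Among the genes above both, 36 had at most 3 counts over the 3 fibroblast libraries and at most 3 over the 3 calvarial-OB libraries, with 26 to 914 counts in iOB, and 6 had none in either cell type. This class was singled out after its values were seen. Its members reached the test through their iOB counts, so their adjusted p-values are not read as support. Edn3, which encodes the secreted peptide endothelin 3, had the most, with 51.9, 39.3 and 37.3 CPM in iOB, no count in fibroblasts and 1 count in calvarial-OB replicate 2. It was at least 422-fold higher than in fibroblasts (edgeR adjusted p = 2.6e-08). Cyp26a1, the enzyme that clears retinoic acid, had 15.9, 12.3 and 18.2 CPM in iOB, or 323 counts, against 2 counts in fibroblasts and 1 in calvarial-OB (edgeR adjusted p = 7.4e-08). Cyp11a1, the enzyme of the first step of steroid hormone synthesis, had 12.1, 5.96 and 8.51 CPM in iOB, or 184 counts, against 0 counts in fibroblasts and 2 in calvarial-OB. In all 3 genes each iOB library exceeded every other library, which the rule for above both requires.

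The 6 genes with no count in either unconverted cell type were Gzmg, Ambn, Klk4, Sln, Vip and Gabrq. Sln, a small inhibitor of the muscle calcium pump, and Vip, which encodes a neuropeptide, had 58 iOB counts each, at least 26.8-fold higher than in fibroblasts and at least 28.6-fold higher than in calvarial-OB. Cartpt, which encodes a neuropeptide precursor, had 102 counts in iOB, against 0 in fibroblasts and 1 in calvarial-OB. Ghrh and Nts, the genes of growth hormone releasing hormone and neurotensin, had 47 iOB counts each. The pacemaker channel gene Hcn4 had 75 counts in iOB, against 1 in fibroblasts and 1 in calvarial-OB, and the calcium channel subunit gene Cacng5 had 185, against 0 in fibroblasts and 1 in calvarial-OB. Of genes that mark neurons, Snap25 had 0 counts in iOB, 0 in fibroblasts and 6 in calvarial-OB. The neuronal list had 1 of 9 tested members above both (Ncam1), 1 below both (Gap43), and 2 higher and 1 lower within the range. Summed over the tested members, iOB libraries had 315 to 348 CPM, fibroblasts 207 to 222 CPM and calvarial-OB 153 to 181 CPM.

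**Figure D3:**
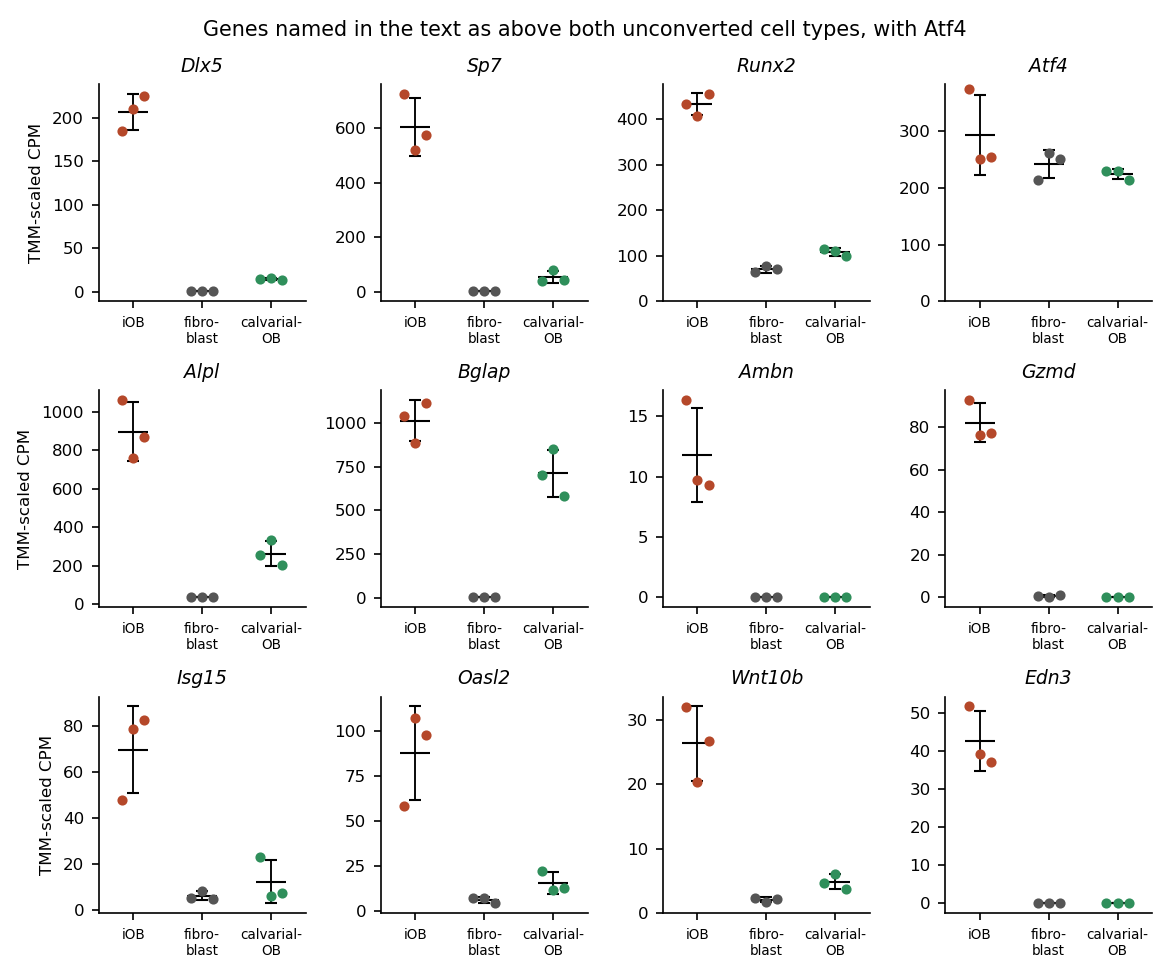
TMM-scaled counts (CPM) in each library for genes above both unconverted cell types, with iOB left, fibroblasts in the middle and calvarial-OB right; points are libraries, bars the mean and SD over 3. In every panel but that of Atf4 the 3 iOB points lie above the 6 others, by a wide gap for Sp7, with 518 to 722 CPM in iOB, and for Ambn, at 0 in both other groups.

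Of the 32 members of the osteoblast and mineralization list, all tested, 9 (28.1%) were above both. Another 2 (6.25%, under the 9.81% of all genes) were below both, a count of 0 without iOB replicate 1 or fibroblast replicate 3 and of 1 without iOB replicate 3, with no filter or with the length trend removed. There were 9 more higher and 2 lower within the range, and the list's median log2 difference was 0.64. Against each cell type alone the medians were 1.70 over fibroblasts and -0.22 over calvarial-OB. Alpl, the bone alkaline phosphatase, an enzyme required for mineral deposition, had 1061, 759 and 873 CPM in iOB, 35.3, 38.7 and 34.5 CPM in fibroblasts and 255, 332 and 201 CPM in calvarial-OB. Even the lowest iOB library lay far above the highest calvarial-OB library, and the difference from the mean was 3.20 ± 0.14 (edgeR adjusted p = 3.3e-08). Slc13a5, the citrate transporter through which mineralizing cells handle citrate, had 210, 162 and 204 CPM in iOB, 0.283, 0.425 and 1.16 CPM in fibroblasts and 82.1, 137 and 81.0 CPM in calvarial-OB (4.54 ± 0.23, edgeR adjusted p = 6.5e-08). Omd, the mineral-binding proteoglycan osteomodulin, was at 273, 261 and 267 CPM in iOB, 15.6, 20.0 and 10.9 CPM in fibroblasts and 105, 128 and 165 CPM in calvarial-OB (edgeR adjusted p = 2.9e-07). The phosphate transporter gene Slc20a2, the receptor genes Fgfr2 and Fgfr3, the cadherin gene Cdh11 and Sp6 completed the members above both with Bglap. Those below both were the carbonic anhydrase gene Car12 (log2 difference -0.51) and the phosphate transporter gene Slc20a1 (-0.30).

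Osteocalcin lay at the border. Bglap had 1041, 889 and 1118 CPM in iOB, 0.754, 1.27 and 3.82 CPM in fibroblasts and 702, 855 and 583 CPM in calvarial-OB. Its iOB libraries were above the rest (4.72 ± 0.24 against the mean, edgeR adjusted p = 6.6e-08), but against calvarial-OB alone the difference was 0.51, with an edgeR adjusted p of 0.11, and its libraries overlapped calvarial-OB under upper-quartile scaling. The near-identical Bglap2 was within the range, with 426, 353 and 441 CPM in iOB, 0.471, 1.13 and 1.49 CPM in fibroblasts and 391, 453 and 317 CPM in calvarial-OB, and reads may be split between such copies. Among other matrix genes of bone, Ibsp and Col1a1 lay between the cell types. Ibsp, the bone sialoprotein gene, had 954, 1110 and 1195 CPM in iOB, 1.88, 2.12 and 9.21 CPM in fibroblasts and 2596, 3137 and 2946 CPM in calvarial-OB (3.22 against the mean, 3.87 without fibroblast replicate 3). Col1a1, the main collagen chain of bone, had 32146, 26839 and 27000 CPM in iOB, 18865, 18453 and 17404 CPM in fibroblasts and 61427, 56366 and 33133 CPM in calvarial-OB, and its difference of -0.08 from the mean was not called (edgeR adjusted p = 0.74; difference 0.045 without calvarial-OB replicate 1). Spp1, the osteopontin gene, was lower than the mean at 403, 603 and 546 CPM in iOB, with 2705, 2284 and 2209 CPM in fibroblasts, and overlapped calvarial-OB at 590, 432 and 527 CPM.

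Of 14 tested genes of osteocytes, the cells embedded in bone, 3 (21.4%, against 11.5% of all genes) were above both and none below. Pdpn (podoplanin), an early osteocyte protein, had 133, 140 and 138 CPM in iOB, 91.8, 71.5 and 107 CPM in fibroblasts and 74.3, 73.8 and 84.2 CPM in calvarial-OB (0.71, edgeR adjusted p = 3.6e-04). Tnfsf11, the osteoclast-inducing ligand RANKL, was at 10.6, 8.37 and 8.34 CPM in iOB, 5.75, 5.81 and 5.23 CPM in fibroblasts and 5.57, 3.80 and 4.36 CPM in calvarial-OB (0.85, edgeR adjusted p = 0.0021). The chemokine scavenging receptor gene Ackr3 was the last (1.08, edgeR adjusted p = 0.0033). Late genes were not among them: Sost, the sclerostin gene, had 0.151, 0.115 and 0 CPM in iOB, none in fibroblasts and 31.6, 5.88 and 5.79 CPM in calvarial-OB. Phex, an endopeptidase of phosphate control, had 4.08, 12.0 and 8.18 CPM in iOB, 0.283, 0 and 0.913 CPM in fibroblasts and 79.2, 66.3 and 58.2 CPM in calvarial-OB, and Dmp1, a matrix phosphoprotein, was higher than the mean within the range, with 16.6, 31.3 and 45.0 CPM in iOB, 1.04, 0.425 and 0.332 CPM in fibroblasts and 19.5, 47.2 and 35.0 CPM in calvarial-OB.

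Of 18 tested cartilage genes 4 (22.2%) were below both and 2 (11.1%) above both, the second share near the 11.5% of all genes. Col2a1, the main collagen of cartilage, had 53.2, 66.2 and 44.3 CPM in iOB, 512, 671 and 850 CPM in fibroblasts and 187, 444 and 249 CPM in calvarial-OB (-3.02 ± 0.29, edgeR adjusted p = 7.1e-06). Sox9, the transcription factor that directs cartilage formation, had 6.35, 12.3 and 7.36 CPM in iOB, 38.4, 37.2 and 51.6 CPM in fibroblasts and 45.5, 51.9 and 59.1 CPM in calvarial-OB (-2.42 ± 0.21, edgeR adjusted p = 3.8e-06). Its partner Sox6 (-1.49) and the low-level gene Ucma were below both as well. Above both were Col9a2, a chain of the collagen on the surface of cartilage fibrils, with 46.3, 37.8 and 37.0 CPM in iOB, 1.98, 2.83 and 1.16 CPM in fibroblasts and 12.8, 15.4 and 10.4 CPM in calvarial-OB (edgeR adjusted p = 2.4e-07), and the proteoglycan gene Acan. The Acan difference of 1.76 leaned on iOB replicate 1, which had 30.2 CPM where the other iOB libraries had 8.72 and 11.9, and was 1.05 without it.

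Of 37 tested collagens 5 (13.5%) were above both, a share near the 11.5% of all genes, and 1 (2.70%) below both (Col2a1), or 3 below both with the length trend removed. Col8a2, a chain of a short network-forming collagen, had 700, 484 and 526 CPM in iOB, 33.6, 25.4 and 18.1 CPM in fibroblasts and 261, 273 and 234 CPM in calvarial-OB (2.81 ± 0.16, edgeR adjusted p = 1.7e-07). Of 29 small leucine-rich proteoglycan and elastic fibre genes 7 (24.1%) were above both and 4 (13.8%) below both, or 7 below both without iOB replicate 2, where the list's median log2 difference was -0.13 against 0.08 with all libraries. Fmod (fibromodulin), a collagen-binding proteoglycan, had 1863, 2004 and 1814 CPM in iOB, 950, 904 and 672 CPM in fibroblasts and 859, 992 and 787 CPM in calvarial-OB (1.14, edgeR adjusted p = 1.2e-05). Bgn (biglycan), a related proteoglycan of bone and soft tissue, was lower at 1412, 1966 and 1618 CPM in iOB, against 5652, 6131 and 5550 CPM in fibroblasts and 3789, 3669 and 3003 CPM in calvarial-OB (-1.43 ± 0.13, edgeR adjusted p = 4.2e-06). The fibrillin gene Fbn2 was also below both (-1.86). Of 29 matrix proteases and inhibitors 4 (13.8%, near the 11.5% of all genes) were above both, among them the gelatinase gene Mmp2 and the elastase gene Mmp12. The count was 10 without calvarial-OB replicate 1 and 7 without iOB replicate 3 or fibroblast replicate 2.

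Of 24 tested fibroblast genes 2 were above both (Fbln1 and Mfap5). Another 4 (16.7%, against 9.81% of all genes) were below both, or 8 without iOB replicate 2. Within the range 8 more were lower and 2 more higher, and the list's median log2 difference was -0.42. Thy1, a surface glycoprotein of fibroblasts, had 113, 111 and 105 CPM in iOB, 162, 237 and 254 CPM in fibroblasts and 256, 277 and 254 CPM in calvarial-OB (-1.12 ± 0.13, edgeR adjusted p = 3.9e-05). Vim, the intermediate filament gene of mesenchymal cells, was at 2159, 2589 and 2247 CPM in iOB, 3974, 4781 and 4968 CPM in fibroblasts and 3135, 3063 and 3107 CPM in calvarial-OB. Fbln2 (fibulin 2) and the growth factor receptor gene Pdgfra were the other members below both, and Pdgfra was within the range without calvarial-OB replicate 1 or 3 or without fibroblast replicate 2 or 3.

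Several granzyme genes were above both. Of 12 genes of the mast cell and lymphocyte list in the table, 8 had enough counts to test, of which 6 were above both and none below. At least Gzmg and Gzmd would not have reached the test without their iOB counts, so the count above both is not read against the share of all genes. Granzymes are serine proteases known from the granules of cytotoxic lymphocytes. Gzme had 177, 152 and 160 CPM in iOB, 5.84, 7.08 and 6.55 CPM in fibroblasts and 0.363, 0.613 and 1.04 CPM in calvarial-OB (6.20 ± 0.14, edgeR adjusted p = 1.1e-10). Gzmd had 92.7, 76.6 and 77.4 CPM in iOB, 0.754, 0.142 and 0.913 CPM in fibroblasts and 1 count in all in calvarial-OB (edgeR adjusted p = 4.4e-10). In both genes every iOB library stood far above every other library. Gzmg had 316 iOB counts and none elsewhere, at least 146-fold higher than in fibroblasts and at least 156-fold higher than in calvarial-OB. Gzmc had 21.3, 15.7 and 16.9 CPM in iOB, 1.79, 2.69 and 2.49 CPM in fibroblasts and 0.605, 0.490 and 0.521 CPM in calvarial-OB (3.99, edgeR adjusted p = 4.3e-08), and Gzmb was at 1.64 to 2.52 CPM in iOB. Genes that mark lymphocytes and mast cells were low: Cd4 had 0.302, 0.115 and 0.327 CPM in iOB and was not called, Prf1, the perforin gene, had 2 counts over the 3 iOB libraries, and Cpa3, a mast cell protease gene, had 0. The sixth member above both was Kit, a receptor of mast cells, at 2.06 to 3.02 CPM in iOB.

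Gzme, Gzmd and Gzmg follow each other on chromosome 14 in RefSeq's GRCm38.p6 gene order, with Gzmc and Gzmb farther along the same cluster. They are closely related genes, and reads may be split between them. The promoters of Gzme and Gzmd are printed because these 2 genes carried most of the granzyme signal. They are RefSeq sequences of GRCm38.p6, on the minus strand, at chr14:56120699-56120834 and chr14:56132666-56132801, with capitals for the core RUNX motif TGTGGT on either strand. The motif occurred in 12.8% of the 10067 tested genes with a listed promoter (250 bases before the start). Among the 1136 genes above both with a listed promoter the share was 12.7%, near that of all genes.
Gzme: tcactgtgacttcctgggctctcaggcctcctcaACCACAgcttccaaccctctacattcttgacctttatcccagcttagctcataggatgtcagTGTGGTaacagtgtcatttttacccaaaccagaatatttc
Gzmd: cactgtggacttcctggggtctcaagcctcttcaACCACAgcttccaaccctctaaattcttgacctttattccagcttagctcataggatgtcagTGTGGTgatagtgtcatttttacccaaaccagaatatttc
The longest run of bases that both promoters share is 45 bases long, and each holds the motif once on each strand. A match is a string of letters and not a measured binding site.

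Some genes of desmosomes, which join epithelial cells, were above both. Of 27 genes of the keratinocyte and desmosome list in the table, 14 had enough counts to test. Of these, 6 were above both and 1 below both. At least Dsg2, Dsc2 and Cdh1 would not have reached the test without their iOB counts, so the count above both is not read against the share of all genes. Dsp, the desmoplakin gene, had 28.6, 22.1 and 19.1 CPM in iOB, 3.01, 1.98 and 3.57 CPM in fibroblasts and 2 counts in all in calvarial-OB (edgeR adjusted p = 6.6e-08). Dsc2, a desmosomal cadherin gene, had 6.81, 6.54 and 6.71 CPM in iOB, 0.848, 1.13 and 1.16 CPM in fibroblasts and 0, 0.123 and 0.195 CPM in calvarial-OB (edgeR adjusted p = 1.0e-06). Pkp1, Dsg2, the E-cadherin gene Cdh1 and the plakoglobin gene Jup completed the group, with Cdh1 at 1.21, 1.72 and 3.44 CPM in iOB, none in fibroblasts and 0.613 to 0.848 CPM in calvarial-OB. Summed over each group, Krt5 had 0 counts in iOB, 2 in fibroblasts and 0 in calvarial-OB, Krt8 had 0 in iOB, 2 in fibroblasts and 7 in calvarial-OB, and Epcam had 1 in iOB, 2 in fibroblasts and 4 in calvarial-OB. Krt19 was below both.

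Interferon-response genes, which cells switch on after sensing viral nucleic acid or interferon, were above both as a group. Of 32 members, all tested, 19 (59.4%) were above both, 10 more were higher within the range and 3 were not called, with a median log2 difference of 2.01. Without calvarial-OB replicate 1 the count above both was 29. Summed over the list, iOB libraries had 1059 to 1577 CPM, fibroblasts 416 to 495 CPM and calvarial-OB 471 to 706 CPM. Oasl2, an antiviral oligoadenylate synthetase-like gene, had 58.4, 107 and 98.2 CPM in iOB, 7.07, 7.36 and 4.23 CPM in fibroblasts and 22.4, 11.6 and 12.9 CPM in calvarial-OB (3.17 ± 0.23, edgeR adjusted p = 1.1e-06). Isg15, a ubiquitin-like modifier, had 47.9, 78.6 and 82.5 CPM in iOB, 5.18, 8.21 and 4.56 CPM in fibroblasts and 23, 6.13 and 7.29 CPM in calvarial-OB (3.07, edgeR adjusted p = 2.2e-05). In Oasl2 and Isg15 the same libraries set the gap, iOB replicate 1 as the lowest of its group and calvarial-OB replicate 1 as the highest of its own. The regulator Irf7 (3.00), the apoptosis-linked gene Xaf1 (2.14), the RNA sensor genes Ddx58 and Ifih1 and the effector genes Ifit1, Ifit3, Mx2, Usp18 and Eif2ak2 were also above both.

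The promoter windows of 3 interferon-response genes above both follow, from RefSeq's GRCm38.p6 table, with capitals for the interferon-stimulated response element written as 2 copies of GAAA spaced by any 2 bases, on either strand. Isg15 lies on the minus strand at chr4:156200841-156200930, Ifit1 on the plus strand at chr19:34640751-34640847 and Gbp3 on the plus strand at chr3:142559965-142560043.
Isg15: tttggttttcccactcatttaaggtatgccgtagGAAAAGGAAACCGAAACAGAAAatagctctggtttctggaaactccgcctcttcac
Ifit1: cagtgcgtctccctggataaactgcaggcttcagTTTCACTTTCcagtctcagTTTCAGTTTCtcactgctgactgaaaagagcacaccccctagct
Gbp3: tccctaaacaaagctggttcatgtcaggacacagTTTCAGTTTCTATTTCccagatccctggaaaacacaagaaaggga
In Isg15 the capitals join 3 overlapping matches, and in Ifit1 and Gbp3 the matches lie on the opposite strand, where the motif reads as 2 copies of TTTC. These windows were chosen because they hold the motif, which occurred in 3.13% of promoters of tested genes with a listed promoter. Only 22 of the 32 list members (68.8%) have a listed promoter, too few for a share over the list.

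Antigen presentation genes lay in the same direction. Of 16 tested 6 (37.5%) were above both and none below, or 14 without calvarial-OB replicate 1. Summed over the list, iOB libraries had 1838 to 2148 CPM, fibroblasts 440 to 625 CPM and calvarial-OB 1062 to 1662 CPM. B2m, the shared light chain of class I molecules, had 942, 995 and 969 CPM in iOB, 243, 202 and 187 CPM in fibroblasts and 729, 488 and 659 CPM in calvarial-OB (1.42, edgeR adjusted p = 3.6e-06). Nlrc5, the transactivator of class I genes, had 9.98, 15.9 and 19.8 CPM in iOB, 1.88, 2.27 and 2.24 CPM in fibroblasts and 9.81, 5.27 and 5.14 CPM in calvarial-OB (2.01), so calvarial-OB replicate 1 came close to the lowest iOB library, and the groups overlapped with RLE or upper-quartile scaling and with DESeq2's size factors. The peptide transporter genes Tap1 and Tap2, Tapbp and H2-K1 were the others.

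Macrophage markers moved with these 2 lists relative to fibroblasts but not beyond calvarial-OB. None of the 22 tested macrophage genes was above both, and 21 were higher than the mean within the range, with median log2 differences of 5.71 over fibroblasts and -1.04 over calvarial-OB. Summed over the list, iOB libraries had 2505 to 4046 CPM, fibroblasts 45.3 to 93.6 CPM and calvarial-OB 4110 to 7590 CPM. Ptprc, the pan-leukocyte marker CD45, had 33.7, 46.1 and 41.4 CPM in iOB, 1.88, 1.70 and 0.664 CPM in fibroblasts and 61.8, 32.0 and 43.2 CPM in calvarial-OB. Csf1r, the growth factor receptor of macrophages, had 109, 148 and 161 CPM in iOB, 6.31, 5.66 and 4.65 CPM in fibroblasts and 293, 139 and 143 CPM in calvarial-OB. Osteoclasts arise from the macrophage lineage, and 8 of the 13 osteoclast genes present had enough counts to test. Of these, 2 were above both and none below, with median log2 differences of 2.48 over fibroblasts and -0.42 over calvarial-OB. Summed over the tested members, iOB libraries had 359 to 417 CPM, fibroblasts 182 to 230 CPM and calvarial-OB 471 to 534 CPM. Mmp9 was above both at 12.7, 37.8 and 38.1 CPM in iOB, 6.69, 1.56 and 1.91 CPM in fibroblasts and 9.44, 7.23 and 6.25 CPM in calvarial-OB (2.53, edgeR adjusted p = 2.7e-04), while Acp5 was within the range. The part of macrophages in the interferon and antigen presentation values was not tested.

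Many Wnt genes were above both. Wnt ligands act through Frizzled and Lrp receptors, and several of the pathway's targets encode inhibitors that dampen it. Of 50 list members in the table, 45 had enough counts to test. Of these, 22 (48.9% of those tested) were above both and none below, with a median log2 difference of 1.02. At least Wnt7b and Notum would not have reached the test without their iOB counts, so the 48.9% partly reflects which genes could be tested. Among the ligands, Wnt10b, which drives bone formation, had 31.9, 20.4 and 26.7 CPM in iOB, 2.45, 1.70 and 2.24 CPM in fibroblasts and 4.72, 6.13 and 3.78 CPM in calvarial-OB (3.02 ± 0.19, edgeR adjusted p = 2.9e-07). Wnt7b, another ligand of osteoblast differentiation, had 13.9, 11.5 and 12.4 CPM in iOB, 0.188, 0.142 and 0 CPM in fibroblasts and 0.969, 3.92 and 1.89 CPM in calvarial-OB (4.64, edgeR adjusted p = 3.4e-06). Wnt2b, Wnt4, Wnt5a, Wnt9a and Wnt11 were also above both, the smallest difference being 0.44 for Wnt9a. Among the receptors, Fzd5 had 143, 101 and 121 CPM in iOB, 37.9, 37.0 and 28.7 CPM in fibroblasts and 52.3, 52.0 and 47.8 CPM in calvarial-OB (1.54, edgeR adjusted p = 1.5e-06). Lgr5, the R-spondin receptor known from stem cells of the gut, had 86.2, 144 and 95.1 CPM in iOB, 17.8, 23.5 and 13.3 CPM in fibroblasts and 26.4, 23.8 and 35.7 CPM in calvarial-OB (2.26, edgeR adjusted p = 3.5e-06). Lrp4, a receptor that binds sclerostin, was well above both at 343, 242 and 272 CPM in iOB, 20.2, 26.9 and 28.8 CPM in fibroblasts and 57.3, 61.8 and 48.8 CPM in calvarial-OB.

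Of 14 tested inhibitors in the list, grouped after their values were seen, 8 were above both, 2 more higher and 1 lower within the range, and 3 were not called. In the whole list 22 of 45 tested members were above both, so the inhibitors are not read as a result apart from their list. Notum, the secreted enzyme that removes the lipid of Wnt ligands, had 22.4, 14.3 and 13.1 CPM in iOB, 0.471, 0.283 and 0.083 CPM in fibroblasts and 0.848, 1.84 and 0.716 CPM in calvarial-OB, the largest difference of the list (4.90 ± 0.33, edgeR adjusted p = 5.5e-07). Sfrp1, a secreted decoy of Frizzled, had 729, 958 and 929 CPM in iOB, 391, 347 and 231 CPM in fibroblasts and 490, 562 and 636 CPM in calvarial-OB (1.03, edgeR adjusted p = 2.1e-04). Dkk2, an antagonist at Lrp receptors, had 228, 298 and 279 CPM in iOB, 168, 198 and 152 CPM in fibroblasts and 57.0, 35.2 and 51.2 CPM in calvarial-OB (1.56, edgeR adjusted p = 5.2e-06). Rnf43, Nkd1, Nkd2, Dkk3 and Apcdd1, also inhibitors, were above both. Sfrp2, a relative of Sfrp1, was the lower one, with 188, 330 and 258 CPM in iOB, 437, 350.0 and 203 CPM in fibroblasts and 674, 792 and 783 CPM in calvarial-OB. The inhibitor gene Sost, counted with the osteocyte genes, was near 0 in iOB. Axin2, a common target, was higher within the range, with 9.07, 5.96 and 11.1 CPM in iOB, 1.70, 2.41 and 1.91 CPM in fibroblasts and 4.12, 6.99 and 5.60 CPM in calvarial-OB.

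BMP and TGF-beta genes, which act through Smad proteins, had 13 of 43 tested members (30.2%) above both and 2 (4.65%) below both. The ligand gene Bmp8a had 36.4, 24.5 and 28.6 CPM in iOB, 0.377, 0.425 and 0.415 CPM in fibroblasts and 11.4, 10.5 and 8.33 CPM in calvarial-OB (3.87 ± 0.18, edgeR adjusted p = 4.0e-08). Bmp2, a classic bone-inducing ligand, had 13.5, 11.9 and 8.34 CPM in iOB, 0.471, 0.425 and 0.083 CPM in fibroblasts and 3.39, 4.41 and 3.97 CPM in calvarial-OB (3.33, edgeR adjusted p = 2.6e-06). Fst (follistatin), which binds activins, was at 245, 213 and 211 CPM in iOB, 49.6, 41.6 and 34.2 CPM in fibroblasts and 123, 125 and 148 CPM in calvarial-OB. The target gene Id1 lay on the other side, with 16.5, 16.3 and 13.1 CPM in iOB, 24.1, 28.2 and 25.1 CPM in fibroblasts and 46.4, 34.3 and 22.9 CPM in calvarial-OB (-0.95 ± 0.20, edgeR adjusted p = 0.0027), and the target gene Tgfbi was the other member below both. Of 21 tested FGF genes 8 (38.1%) were above both and none below. The receptor gene Fgfr1 had 635, 531 and 591 CPM in iOB, 279, 275 and 261 CPM in fibroblasts and 184, 222 and 167 CPM in calvarial-OB (1.36, edgeR adjusted p = 1.0e-06), and its feedback inhibitor Spry4 had 42.8, 31.2 and 34.5 CPM in iOB, 6.03, 5.81 and 3.57 CPM in fibroblasts and 14.7, 11.6 and 11.5 CPM in calvarial-OB (2.18, edgeR adjusted p = 1.3e-06).

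At the low end, cell cycle genes were below both almost throughout. Of 40 members, all tested, 34 (85.0%) were below both and 1 above both, where 9.81% of all genes were below both, and the median log2 difference was -1.60. Mki67, the marker of cycling cells, had 34.3, 52.5 and 43.2 CPM in iOB, 160, 203 and 237 CPM in fibroblasts and 107, 156 and 151 CPM in calvarial-OB (-1.93 ± 0.18, edgeR adjusted p = 6.8e-06). Top2a, the topoisomerase of replication and mitosis, had 29.8, 32.2 and 27.8 CPM in iOB, 106, 136 and 174 CPM in fibroblasts and 63.1, 111 and 117 CPM in calvarial-OB (-1.95, edgeR adjusted p = 2.3e-05). Ccna2, the cyclin of S phase and mitosis, had 6.65, 11.8 and 8.18 CPM in iOB, 34.6, 45.2 and 52.3 CPM in fibroblasts and 22.3, 45.4 and 44.1 CPM in calvarial-OB (-2.17, edgeR adjusted p = 5.7e-05). By the rule for below both, no iOB library of these genes reached another group. Cdk1, Plk1, Ube2c, Cenpf and the replication licensing gene Mcm2 were also below both. The exception was Ccnd1 (cyclin D1), the G1 cyclin induced by growth factors, with 754, 642 and 681 CPM in iOB, 201, 158 and 185 CPM in fibroblasts and 484, 542 and 532 CPM in calvarial-OB (1.17, edgeR adjusted p = 2.1e-06). Among 25 Cdk inhibitors and p53 targets 4 (16%) were above both and 2 (8%) below both, against 11.5% and 9.81% of all genes. Without fibroblast replicate 1 there were 8 above both. Cdkn2a, the locus of p16 and p19 that accumulates in aging cultures, had 137, 131 and 133 CPM in iOB, 45.7, 45.3 and 48.3 CPM in fibroblasts and 31.5, 38.9 and 30.1 CPM in calvarial-OB (1.76, edgeR adjusted p = 6.5e-08), while Cdkn1b and Cdkn2c were below both.

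Many mitotic genes carry in their promoters a short element, the cell cycle genes homology region TTTGAA. It was found in 10 of 32 cell cycle genes with a listed promoter (31.2%) and in 12.5% of tested genes with one. Windows of 3 of those below both follow, from GRCm38.p6, all on the minus strand, with capitals for the element on either strand: Top2a at chr11:99024329-99024402, Mki67 at chr7:135716438-135716529 and Cdk1 at chr10:69352913-69353017.
Top2a: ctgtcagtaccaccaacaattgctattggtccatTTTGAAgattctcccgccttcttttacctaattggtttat
Mki67: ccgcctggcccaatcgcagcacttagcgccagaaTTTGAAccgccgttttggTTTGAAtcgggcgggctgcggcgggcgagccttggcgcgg
Cdk1: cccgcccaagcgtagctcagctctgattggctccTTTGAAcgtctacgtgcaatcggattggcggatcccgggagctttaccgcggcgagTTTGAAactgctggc
Each of the 3 holds the element more than once, with a further copy in Top2a outside the printed stretch.

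Glycolysis and hypoxia genes were the other large group below both, with 22 of 30 tested members (73.3%) below both and 1 above both, and a median log2 difference of -1.33. Summed over the list, iOB libraries had 3416 to 3458 CPM, fibroblasts 9058 to 9965 CPM and calvarial-OB 5976 to 8021 CPM. Ldha, the lactate dehydrogenase of fermenting cells, had 191, 200 and 188 CPM in iOB, 864, 796 and 905 CPM in fibroblasts and 681, 715 and 656 CPM in calvarial-OB (-1.98 ± 0.09, edgeR adjusted p = 3.3e-08). Pgk1, the kinase of a late glycolytic step, had 176, 172 and 186 CPM in iOB, 882, 811 and 899 CPM in fibroblasts and 569, 507 and 543 CPM in calvarial-OB (-1.94 ± 0.09, edgeR adjusted p = 3.5e-08). Slc16a3, the lactate exporter MCT4, had 1.81, 2.98 and 2.29 CPM in iOB, 118, 101 and 115 CPM in fibroblasts and 82.9, 38.4 and 30.3 CPM in calvarial-OB, the largest difference of the list (-4.95 ± 0.38, edgeR adjusted p = 1.5e-06). iOB libraries lay close together in these genes, and the calvarial-OB libraries spread widely in Slc16a3, with replicate 1 the highest. Bnip3, a hypoxia-induced mitophagy receptor, had 25.4, 27.8 and 26.2 CPM in iOB, 232, 187 and 211 CPM in fibroblasts and 179, 53.8 and 90.6 CPM in calvarial-OB (-2.51 ± 0.31, edgeR adjusted p = 5.7e-05). The glucose transporter gene Slc2a1, the pyruvate dehydrogenase kinase gene Pdk1, Gapdh, Aldoa, Tpi1, Pfkl, Egln3, Car9 and Ndufa4l2 were also below both. Pfkfb4, which regulates the glycolytic rate, was above both at 27.5, 25.1 and 26.5 CPM in iOB, 6.97, 5.52 and 5.89 CPM in fibroblasts and 21.8, 18.1 and 16.9 CPM in calvarial-OB (1.29, edgeR adjusted p = 7.3e-06).

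The core of the hypoxia response element, ACGTG, which the hypoxia-inducible factors bind and which also lies within E-boxes read CACGTG, was found in the promoters of 18 of 28 list members with a listed promoter (64.3%) and of 24.8% of tested genes with one. Windows of 3 of those below both follow, from GRCm38.p6, all on the plus strand, with capitals for the element on either strand: Slc16a3 at chr11:120949006-120949066, Pgk1 at chrX:106186916-106187007 and Ldha at chr7:46845625-46845697.
Slc16a3: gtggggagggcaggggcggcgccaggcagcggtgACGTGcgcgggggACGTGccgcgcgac
Pgk1: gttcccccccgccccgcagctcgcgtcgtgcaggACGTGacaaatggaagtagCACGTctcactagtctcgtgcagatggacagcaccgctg
Ldha: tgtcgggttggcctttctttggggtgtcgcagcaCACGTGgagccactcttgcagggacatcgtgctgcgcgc
Ldha holds further matches outside its printed stretch. Whether these elements were occupied in these cells was not measured, and oxygen levels are not given in the sources used here.

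**Figure D4:**
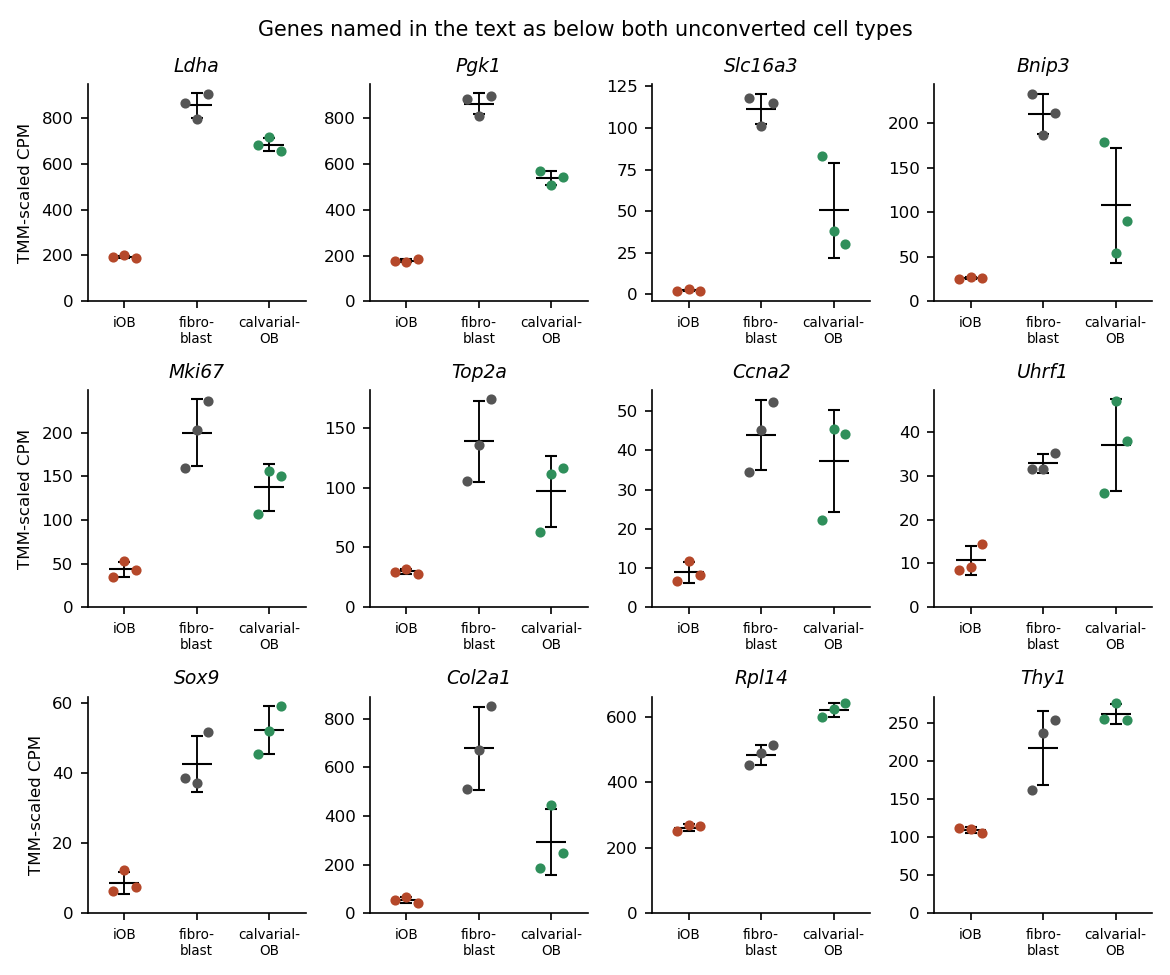
TMM-scaled counts (CPM) in each library for genes below both unconverted cell types, with iOB left, fibroblasts in the middle and calvarial-OB right; points are libraries, bars the mean and SD over 3. In every panel the 3 iOB points lie below the 6 others, as for Ldha, with 188 to 200 CPM in iOB.

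Cytosolic ribosomal protein genes were lower by a nearly uniform amount. Of 32 members, all tested, 31 (96.9%) were below both, and the log2 differences of these ran from -1.18 to -0.76. Summed over the list, iOB libraries had 10316 to 11772 CPM, fibroblasts 20178 to 22576 CPM and calvarial-OB 21708 to 22634 CPM. Rpl14, a protein of the large subunit, had 250, 270 and 265 CPM in iOB, 452, 489 and 513 CPM in fibroblasts and 600, 623 and 642 CPM in calvarial-OB (-1.07 ± 0.08, edgeR adjusted p = 1.8e-06). Of 32 tested respiratory chain and ATP synthase genes 7 (21.9%) were below both and none above, and Cox4i1, a subunit of cytochrome oxidase, differed by -0.59 ± 0.08 (edgeR adjusted p = 1.7e-04). Of 15 tested genes of DNA methylation enzymes and their partners 3 (20%, against 9.81% of all genes) were below both and none above. Uhrf1, which brings the maintenance methyltransferase to replicating DNA, had 8.47, 9.17 and 14.4 CPM in iOB, 31.5, 31.6 and 35.3 CPM in fibroblasts and 26.2, 46.9 and 37.8 CPM in calvarial-OB (-1.72, edgeR adjusted p = 5.6e-05). Dnmt1, that methyltransferase, had 43.1, 51.1 and 52.2 CPM in iOB, 63.2, 74.8 and 76.6 CPM in fibroblasts and 73.0, 78.7 and 71.3 CPM in calvarial-OB (-0.58, edgeR adjusted p = 7.5e-04).

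Gene length moved with the direction. By RefSeq's genomic length, known for 94.6% of tested genes, the median was 40382 bases for genes above both, 14814.5 for genes below both and 23941.5 for all tested. Across quintiles of length, shortest to longest, 7.24%, 7.56%, 11.2%, 12.3% and 20.0% of genes were above both, and 15.2%, 12.4%, 9.72%, 7.24% and 4.80% were below both. The median log2 difference of iOB from calvarial-OB ran from -0.32 in the shortest quintile to 0.31 in the longest, while that from fibroblasts stayed between -0.07 and 0.03. The ribosomal protein genes are short, with a median of 3510 bases. With the length trend removed by a fit added after the data were seen, 1441 genes were above both and 1252 below both, of 12706 tested. The part of gene length in the list results was not tested beyond that fit.

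**Figure D5:**
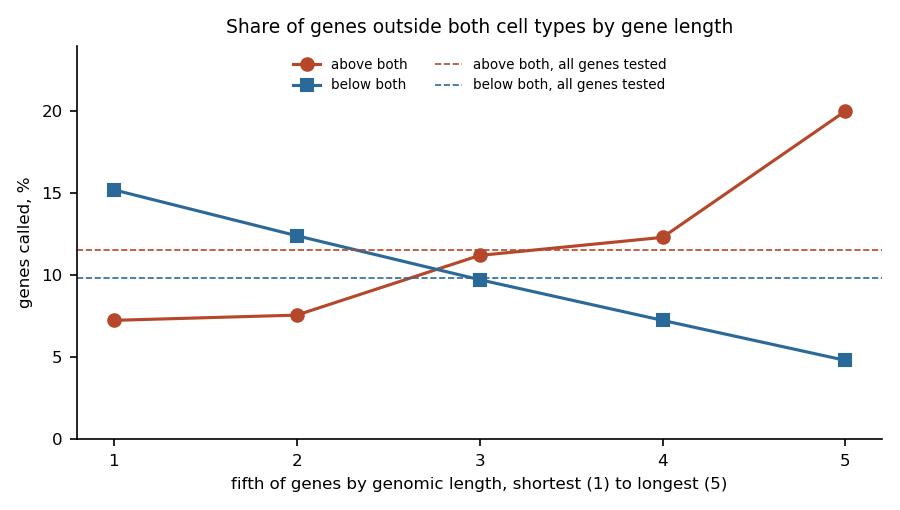
Share of tested genes called above both (red) or below both (blue) in each quintile of RefSeq genomic length, in percent. Dashed lines mark the same shares over all genes tested. The share above both runs from 7.24% in the shortest quintile to 20.0% in the longest, and the share below both from 15.2% to 4.80%.

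Among well-expressed genes above both, the largest differences from the nearer cell type included that of Lifr, the receptor subunit for leukaemia inhibitory factor, with 1275, 774 and 882 CPM in iOB, 83.3, 85.0 and 61.1 CPM in fibroblasts and 136, 135 and 125 CPM in calvarial-OB (3.28 ± 0.15, edgeR adjusted p = 3.3e-08). The chemokine gene Cxcl14 had 691, 457 and 468 CPM in iOB, 101, 79.2 and 69.9 CPM in fibroblasts and 32.2, 39.7 and 26.6 CPM in calvarial-OB (3.37 ± 0.16, edgeR adjusted p = 4.4e-08). Nt5e, the surface enzyme CD73 that makes adenosine, had 293, 216 and 241 CPM in iOB, 15.3, 13.0 and 17.2 CPM in fibroblasts and 63.7, 33.3 and 38.0 CPM in calvarial-OB (3.26, edgeR adjusted p = 1.2e-07). The iOB libraries of all 3 genes lay several-fold above the rest. Among those below both were Mif, a secreted cytokine-like protein, with 41.0, 53.7 and 49.1 CPM in iOB, 241, 230 and 246 CPM in fibroblasts and 235, 221 and 170 CPM in calvarial-OB (-2.22, edgeR adjusted p = 2.2e-07), and the metallothionein gene Mt1, with 26.2, 26.1 and 22.1 CPM in iOB, 86.2, 65.6 and 87.7 CPM in fibroblasts and 96.0, 69.3 and 73.6 CPM in calvarial-OB (-1.68).

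Cells sorted for GFP from iOB cultures were compared with fibroblasts in the authors' deposited table, which carries log2 fold changes but no values per library, and which shares the fibroblast group with the values above. In the authors' deposited table Ambn was at 7.50, Mmp20 at 8.15, Dspp at 7.35, Klk4 at 3.62 and Edn3 at 7.0. Other genes above both in the count table were near 0 or negative: the authors' deposited table gave 0.10 for Nts, 0.15 for Dsc2, -0.67 for Sfrp1, -0.89 for Dkk3, -0.90 for Tnfsf11, -0.95 for Wnt9a, -1.30 for Pdpn and -1.65 for Dkk2. The authors' standard errors were 0.88 for Nts, which had no adjusted p, 0.76 for Dsc2, 0.80 for Sfrp1, 0.56 for Tnfsf11 and 0.67 for Dkk2. For Dkk3, Wnt9a and Pdpn they were 0.14, 0.33 and 0.23. These genes were picked after their values were seen. The authors' deposited table gave 3.59 for Gzme, 5.67 for Gzmd and 6.40 for Gzmg. For genes below both, the authors' deposited table gave -4.94 for Slc16a3, -1.66 for Ldha, -2.72 for Pgk1, -2.64 for Mki67 and -2.62 for Top2a. Other genes below both were positive there: 1.86 for Car12, 0.63 for Kdelr3, 0.54 for Smtn and 0.47 for Serpinh1. The authors' standard errors for them were 0.49, 0.22, 0.19 and 0.20. They too were picked after their values were seen. The ribosomal protein gene Rpl14 was closer to 0 in the authors' deposited table, at -0.44, and so was Lgr5 at 0.37. These are differences from fibroblasts alone, while those given above for Rpl14 and Lgr5 are from the mean of both cell types. For macrophage genes the authors' deposited table gave 4.72 for C1qa, 2.94 for Csf1r and 2.95 for Ptprc, without an adjusted p.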

How the data were processed

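The authors deposited a table of read counts per gene for 3 iOB, 3 fibroblast and 3 calvarial-OB libraries, and a table of log2 fold changes with p-values for GFP-sorted iOB cells against fibroblasts. Per the labels' protocols, poly-A RNA was isolated before library preparation. The genome build was mm9 and the tools DESeq2, STAR 2.4.2a and Bowtie2, per the submitters' processing notes, which do not say which step used which. The counting tool, its annotation and its use of strand are not given in the sources used here.

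Counts were filtered with filterByExpr, scaled by TMM and fitted with edgeR 4.0.16 (glmQLFit, glmQLFTest; R 4.3.3) on all 9 libraries, with the contrast iOB minus the mean of fibroblast and calvarial-OB and Benjamini-Hochberg adjustment over the 13438 genes tested. The standard error of a log2 difference was taken as its size divided by the square root of the F statistic. The biological coefficient of variation was 14.8%. The procedure was tested on simulated data. Where a group had no count, folds are bounds from a floor of 3 counts over its libraries, and intervals and floors cover counting error only. The members and the 43 gene lists (1010 genes, 963 of them in the table) were chosen with earlier results of these data known. Named genes are up to 3 per list outside both cell types, the 15 largest differences each way from the nearer cell type among well-expressed genes, the published factors and fixed markers, and the other members of lists are named from their counts. Alternatives were RLE and upper-quartile scaling, no filter, DESeq2 1.42.0, the replicate number as a block, leaving out each library, stricter call rules and, added after the data were seen, removal of a length trend. Same-numbered libraries of different groups had correlations of deviations from -0.146 to 0.147, over 0.1 in 2 of 9 pairs, so the numbers were not taken as pairs. Promoters and gene lengths came from RefSeq (GRCm38.p6), matched by symbol. Methylation data of the series were not used here. Plots were made with matplotlib 3.10.9 in Python 3.11.15.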

Additional observations from a re-analysis of the deposited data

How the results depend on the processing

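Of 142 named genes tested, 130 kept their direction and their side of the threshold under all alternatives run. With the replicate block 2942 genes were higher and 2070 lower, 1521 above both and 1263 below both, and same-numbered libraries did not deviate together, so the block is an alternative only. Leaving out each library in turn gave 2409 to 3866 genes higher, 1476 to 2577 lower, 1504 to 2181 above both and 1115 to 1548 below both; calvarial-OB replicate 1 gave the highest of each, and iOB replicate 1 the lowest count higher, lower and above both. A 2-fold difference from the nearer cell type left 570 genes above both and 298 below both, and calls against each cell type separately left 1247 and 956. Above both and below both, RLE scaling gave 1607 and 1259 genes, upper-quartile scaling 1448 and 1486, no filter 1805 and 1199, DESeq2 1561 and 1190, and the length trend removed 1441 and 1252. Differences that changed sign were not called: leaving out each library gave -0.17 to 0.045 for Col1a1 and -0.40 to 0.745 for the fat droplet gene Plin1, which was at 0.037 with DESeq2, and the neuronal gene Map2 was at -0.014 with the length trend removed. The cause was not tested. Egfl7 and Nfatc1 lost their place outside both in several settings, Ttn without iOB replicate 1, Cebpg without iOB replicate 2, Pdgfra with no filter, and Ttn, Cebpg, Synpo2, Nlrc5 and P4hb with the length trend removed. Depth limits genes under about 1 CPM, where an iOB library held few counts, and the granzyme and osteocalcin copies, whose reads cannot be assigned with certainty.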

Other observations

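Several lists not described above had few members outside both cell types. Over all genes tested 11.5% were above both and 9.81% below both, and these small counts are not read as results about the lists. Of 27 tested Hox genes 2 were above both, Hoxa7 and Hoxb2, or 5 without iOB replicate 3 or without fibroblast replicate 1, and 21 were higher than the mean within the range. The median log2 difference of the Hox list was -0.19 from fibroblasts and 6.80 from calvarial-OB. Of 34 amino acid response genes 3 were below both (Cars, Psat1 and Cebpg), or 6 without iOB replicate 1, and none above. Of 34 tested genes of the secretory pathway 3 (8.82%) were above both (Dnajb9, Atf6 and Herpud1) and 3 (8.82%) below both (P4hb, Kdelr3 and Serpinh1). The count above both was 7 with the length trend removed and 5 or 6 without any 1 calvarial-OB library. Dnajb9, a chaperone of the endoplasmic reticulum, had 95.7, 81.2 and 71.3 CPM in iOB, 31.6, 37.2 and 31.2 CPM in fibroblasts and 28.3, 31.9 and 39.4 CPM in calvarial-OB (log2 difference 1.31, edgeR adjusted p = 6.6e-06).

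Of 17 tested adipocyte genes 3 (17.6%, against 9.81% of all genes) were below both and none above. Fabp4, the fatty acid carrier of fat cells, had 8.92, 12.8 and 10.6 CPM in iOB, 18.9, 24.9 and 30.9 CPM in fibroblasts and 247, 209 and 406 CPM in calvarial-OB. None of 23 AP-1 and immediate early genes was outside both, but 9 were above both without calvarial-OB replicate 1. Of 11 tested Hedgehog genes the receptor genes Ptch1 and Boc were above both and Gas1 below both. Of 20 IGF genes Irs1 was above both and 3 were below both, among them Igfbp7, with 120, 110 and 100 CPM in iOB, 339, 334 and 329 CPM in fibroblasts and 215, 227 and 197 CPM in calvarial-OB. Notch2 was the only one of 15 tested Notch genes outside both. In the smooth muscle list Myocd, Csrp1 and Synpo2 were above both and Smtn below both, and without iOB replicate 1 there were 5 above both and without calvarial-OB replicate 1 there were 4 below both. Of 10 tested tendon genes Fmod was above both and Tnmd below both. None of 10 tested glia genes was outside both, Egfl7 was below both among 6 tested endothelial genes, and Pecam1 had 1 count in iOB, 2 in fibroblasts and 10 in calvarial-OB, summed over each group. Of 22 tested cytokine and acute phase genes Cxcl14 was above both and Il1rn and Ccl11 below both, and 3 were above both without calvarial-OB replicate 1 or fibroblast replicate 1. Among 24 cholesterol synthesis genes Hsd17b7 was above both, or 3 without calvarial-OB replicate 1 or 2. Of 8 tested histone genes 1 was below both, or 3 without iOB replicate 1 or with no filter. Sox2 was below both among 6 tested pluripotency genes.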
